A study of Mus musculus with 12 samples.

Results

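The cytosolic chaperonin CCT, also called TRiC, was described in mouse CD8+ T cells through the mRNAs of its 8 subunits. The members are the 8 genes Tcp1, Cct2, Cct3, Cct4, Cct5, Cct6a, Cct7 and Cct8, taken by their symbols from a table of 13780 genes, of which 13767 were tested. RNA-seq had been run on 12 libraries of CD8+ T cells from spleens of C57BL/6J mice of 8 to 12 weeks, purified by positive magnetic selection. The naïve group (4 libraries) was frozen untreated straight after isolation. The media group (4 libraries) had spent 72 h in plain medium with IL-2 (10 U/ml) and beads that bind CD3 and CD28, which activate T cells. The lactate group (4 libraries) was activated likewise, with sodium lactate added at 40 mM. The media group received no matching sodium salt, so in these libraries lactate and the added sodium cannot be told apart.

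CCT is a double ring that takes up newly made or unfolded proteins, closes over them and folds them with the energy of ATP. Each ring holds 1 copy of each of the 8 related subunits in a fixed order, and every subunit has its own ATP site and its own contacts with clients. Actin and tubulin depend on it, as do some WD-repeat proteins of the cell cycle and of G protein signalling. Prefoldin hands actin and tubulin chains to CCT, phosducin-like proteins modulate it, and the HSP70 and HSP90 systems act beside it. A T cell that leaves rest grows and divides, which raises its need for cytoskeleton and for protein folding.

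In the GENCODE M21 annotation of GRCm38, the 8 genes lie on 8 different chromosomes. Tcp1 (subunit alpha) is at chr17:12915701-12925067, Cct2 (beta) at chr10:117051001-117063814, Cct3 (gamma) at chr3:88297116-88321767 and Cct4 (delta) at chr11:22990519-23003780. Cct5 (epsilon) is at chr15:31590800-31601804, Cct6a (zeta) at chr5:129786998-129846371, Cct7 (eta) at chr6:85451514-85468475 and Cct8 (theta) at chr16:87483326-87495873. Cct2, Cct5 and Cct8 are on the minus strand and the others on the plus strand. Counts were taken over exons, and some member exons overlap exons of genes on the opposite strand. The overlap covers 12.5% of the exon bases of Cct6a (with Psph), 11.4% of Tcp1 (with Acat3, not in the table) and 2.80% of Tcp1 (with Mrpl18). It covers 6.22% of Cct8 (with Usp16) and 3.16% of Cct7 (with Pradc1). Whether strand was used in counting is not given in the sources used here, so reads in these stretches may belong to either gene.

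The 250 bases before the RefSeq start sites (GRCm38.p6) were read for 7 members, which have 9 such windows. No window was matched for Cct4. Several windows lie in annotated exons of some gene, with all 250 bases for Tcp1 and Cct6a and 245 and 189 for Cct5. The overlap was 134 bases for Cct3 and 125 for Cct8, and the counts below include all 9 windows. Those of Tcp1 and Cct6a lie inside the gene's own coordinates, as does 1 window each of Cct2 and Cct5. The GC box (GGGCGG, either strand) was in 8 of the 9 windows, against 32.7% of 32851 windows of all genes, and the CCAAT box (CCAAT, either strand) in 4 of 9, against 33.9%. The E-box letters CACGTG and the letters GCGCATG were in none of the 9, against 6.02% and 3.24% of all windows. The ETS letters CCGGAAG were in 2 of 9, against 6.91%. The heat shock element letters GAANNTTC and TTCNNGAA, where N is any base, were each in 1 of 9, against 6.69% and 7.17%. Windows are shown for Cct2 and Cct7, the only 2 members with a window that has at most 29 bases in annotated exons, with GC and CCAAT boxes in capitals. The Cct2 window is chr10:117063853-117064102, minus strand, and the Cct7 window chr6:85451255-85451504, plus strand. The motifs were chosen with the expression results known, and a match describes letters only.
Cct2: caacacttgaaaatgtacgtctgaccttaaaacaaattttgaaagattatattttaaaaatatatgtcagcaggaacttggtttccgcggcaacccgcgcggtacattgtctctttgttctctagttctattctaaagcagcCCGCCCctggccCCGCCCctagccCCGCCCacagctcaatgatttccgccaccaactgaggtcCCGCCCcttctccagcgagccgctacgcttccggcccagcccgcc
Cct7: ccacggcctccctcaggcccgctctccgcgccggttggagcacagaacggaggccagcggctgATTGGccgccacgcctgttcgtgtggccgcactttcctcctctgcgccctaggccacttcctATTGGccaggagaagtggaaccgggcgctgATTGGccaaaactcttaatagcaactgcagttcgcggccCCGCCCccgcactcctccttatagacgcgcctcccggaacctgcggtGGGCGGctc

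The libraries held 14726904 to 21478137 counts each, and no 2 replicates agreed within sampling noise. The closest pair was lactate replicates 3 and 4, with a chi-square per degree of freedom of 5.90, where sampling noise alone gives about 1. It was 28.7 to 41 for the other lactate pairs. The labels give replicates 3 and 4 different donors. The naïve replicate 4 stood apart: Hspa1a, an inducible HSP70 gene chosen after its values were seen, was at 1618, 2461, 2420 and 4.82 CPM in naïve replicates 1 to 4. Their library numbers in the descriptions are 7, 8, 9 and 26. Replicate 4 is thus the only naïve library with a higher number, and library and number series cannot be told apart here. Naïve libraries also held markers of other cells, at far higher levels than the activated ones. The summed level of 4 B cell markers was 584 to 1438 TPM in naïve libraries, 15.9 to 27.2 in media and 10.4 to 15.8 in lactate. The sum of 4 myeloid markers was 395 to 1030 TPM in naïve libraries and at most 0.962 in activated ones, and the red cell marker Hba-a1 was 149 to 5246 TPM against at most 2.72. The CD8+ T cell markers summed to 3702 to 6307 TPM in naïve, 4368 to 5308 in media and 3269 to 3980 in lactate libraries. In bulk libraries fewer cells of a type and less RNA per cell cannot be told apart.

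The main question of the design is what lactate changes in activated cells, and all 8 CCT subunit mRNAs were higher in the lactate than in the media libraries. Levels are CPM, the counts of a gene relative to the library total after TMM scaling, and tests are edgeR's quasi-likelihood test with Benjamini-Hochberg adjustment over all 13767 genes, called at an adjusted p of at most 0.01. By this rule 8 of 8 members rose, with log2 fold changes from 0.37 for Tcp1 to 1.14 for Cct3, and the calls on Tcp1 and Cct4 did not hold in every alternative given further on. Among all genes, 13.9% were called higher and 11.1% lower. The median log2 fold change of the members was 0.65, against -0.0016 over all genes. Among the 703 genes at least as abundant as the lowest member (mean 266 CPM), a background added after the values were seen, 15.6% were called higher. The highest media library was below the lowest lactate library for 8 of 8 members, which 23.2% of all genes also showed. For each member an exact two-sided permutation test of 4 against 4 libraries gave p = 0.0286, the smallest it can give. The permutation test compares libraries of 8 cultures from 5 mice. The edgeR fit also held the naïve libraries, so its estimate of the spread takes them in. Neither test takes account of mice shared between the media and lactate groups, so neither measures the spread between mice.

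**Figure D1:**
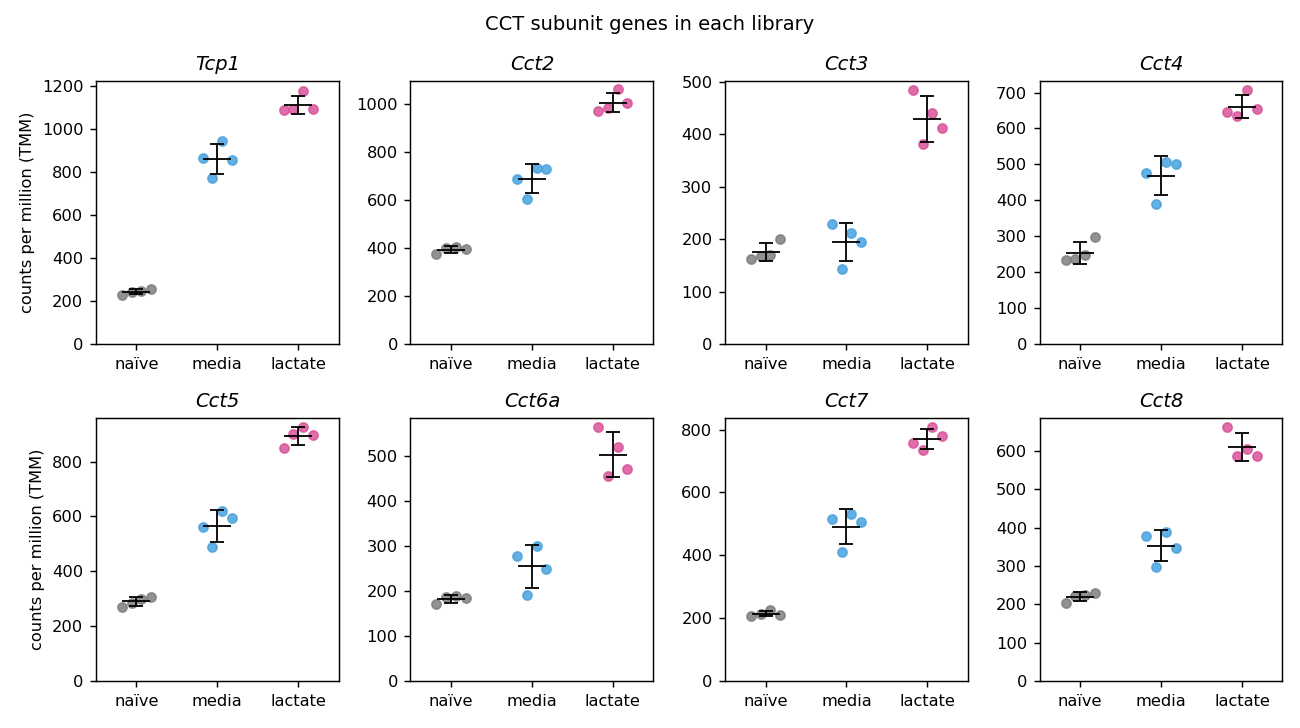
CPM (TMM scaled) of each CCT subunit gene in the 12 libraries, 4 per group. Dots are libraries and bars are the mean and SD. For every gene the 4 lactate libraries lie above the 4 media libraries, and for every gene but Cct3 the media libraries lie above the naïve ones.

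The largest difference was that of Cct3, whose subunit is among those that bind ATP weakly. Cct3 was at 228, 144, 212 and 194 CPM in media replicates 1 to 4 and at 485, 382, 442 and 411 CPM in lactate replicates 1 to 4. This is a log2 fold change of 1.14 ± 0.14 (SE), or 2.21-fold, with an edgeR adjusted p of 0.000115. Every lactate library stood above every media library, and media replicate 2 was the lowest of all. In all tested genes, 4.96% had a larger fold change than Cct3. Its media libraries had the largest coefficient of variation of the 8 genes (18.7%), next to Cct6a at 18.5%.

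Cct6a, whose zeta subunit also binds ATP weakly, followed. It was at 278, 191, 300 and 250 CPM in media and at 566, 455, 520 and 472 CPM in lactate. The log2 fold change was 0.98 ± 0.13 (SE), with an edgeR adjusted p of 0.000161. The groups did not overlap: the lowest lactate library was at 455 CPM and the highest media library at 300 CPM. Its opposite-strand neighbour Psph, which makes serine, had a log2 fold change of 1.38 ± 0.22 (SE, adjusted p = 0.000484), at 38.1 to 58.2 CPM in media and 115 to 147 CPM in lactate. The part of the shared exon stretch in the Cct6a value was not tested.

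Cct8, which encodes the theta subunit and is known as another weak ATP binder, came next. ATP binding is given as background and not for every member, and its relation to the fold changes was not tested. Cct8 was at 377, 298, 389 and 348 CPM in media and at 664, 586, 606 and 587 CPM in lactate. The log2 fold change was 0.79 ± 0.10 (SE), with an edgeR adjusted p of 0.000116. Usp16, the deubiquitinase gene whose exons overlap its 3′ end on the other strand, was at 49.98 to 55.7 CPM in media and 71.5 to 87.7 CPM in lactate (log2 fold change 0.65, adjusted p = 0.000373).

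Cct5 and Cct7 lay at the middle of the 8. Cct5, whose subunit is among the strong ATP binders, was at 562, 487, 618 and 592 CPM in media and 848, 901, 927 and 896 CPM in lactate. Its log2 fold change was 0.66 ± 0.09 (SE), with an edgeR adjusted p of 0.000189. Cct7 was at 517, 411, 531 and 506 CPM in media and 758, 735, 808 and 779 CPM in lactate. Its log2 fold change was 0.65 ± 0.09 (SE), with an edgeR adjusted p of 0.000231. The overlapping neighbour Pradc1 was at 14.2 CPM in media on average, so its level is small beside that of Cct7.

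Cct2, Cct4 and Tcp1 rose least. Cct2, the beta subunit, was at 688, 604, 732 and 729 CPM in media and 969, 984, 1060 and 1001 CPM in lactate, a log2 fold change of 0.54 ± 0.08 (SE, adjusted p = 0.000361). Cct4, the delta subunit and another strong ATP binder, was at 477, 390, 507 and 502 CPM in media and 646, 635, 708 and 655 CPM in lactate, a log2 fold change of 0.49 ± 0.11 (SE, adjusted p = 0.00334). Both had every lactate library above every media library.

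Tcp1, the founding member of the family, was at 863, 773, 943 and 854 CPM in media and at 1085, 1092, 1173 and 1093 CPM in lactate. Its log2 fold change was 0.37 ± 0.08 (SE), or 1.29-fold, with an edgeR adjusted p of 0.00349. The groups did not overlap, and lactate replicate 3 stood above 3 near-equal lactate libraries. Its neighbour Mrpl18 gave a log2 fold change of 0.11 (adjusted p = 0.494). A call on Tcp1 was lost without media replicate 2 (edgeR adjusted p = 0.0117), media replicate 4 (0.0111), lactate replicate 3 (0.0185) or lactate replicate 4 (0.0130), with a log2 fold change of 0.32 to 0.38 in each. The call on Cct4 was lost without lactate replicate 3 (log2 fold change 0.46, adjusted p = 0.0162) or lactate replicate 4 (0.49, adjusted p = 0.0120).

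Activated cells came from 5 mice, and 3 of these were sequenced under both conditions, by the donor tags read within each series of library numbers. Within these donors, all 8 members were higher with lactate in each of the 3 pairs, with median differences on the log2 CPM scale of 0.57, 0.61 and 0.51. The order was also kept at its ends: Cct3 was the largest and Tcp1 the smallest difference in every pair (Cct3 1.08, 1.08 and 0.85, Tcp1 0.33, 0.36 and 0.21, in the donors of lactate replicates 1, 4 and 2). In an edgeR fit with the donor as a replicate block, 6 of 8 members were called, and Tcp1 (log2 fold change 0.30, adjusted p = 0.0460) and Cct4 (0.38, adjusted p = 0.0522) were lost. That fit had the naïve libraries in it and called 625 of all 13767 genes higher. A donor block on the 8 activated libraries alone was chosen after those calls had been seen. It called 7 of 8 members higher, beside 2030 of all 13767 genes. Tcp1 was lost there (0.31, edgeR adjusted p = 0.0191) and Cct4 was called (0.39, edgeR adjusted p = 0.00679). The libraries with lower and higher numbers, read as separate series, gave a difference of the same sign for each member. It was 0.35 and 0.41 for Tcp1, and 1.17 and 1.13 for Cct3. The lower series held media replicates 1, 2 and 3 and lactate replicates 1 and 2. The higher series held lactate replicates 3 and 4 but only media replicate 4, so its difference rests on 1 media library.

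**Figure D2:**
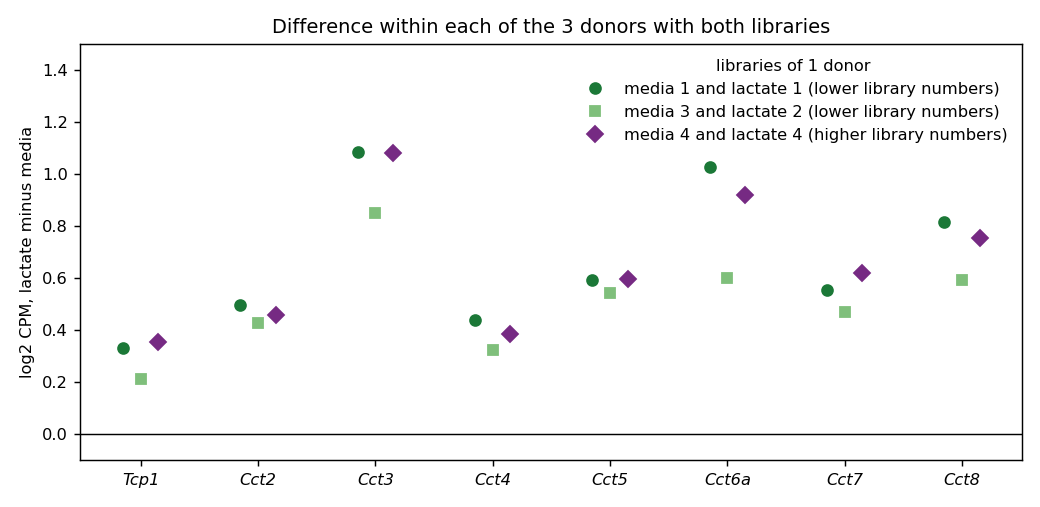
Lactate minus media difference in log2 CPM within a donor, for each CCT subunit gene, in the 3 donors sequenced under both conditions. All 24 points lie above 0, and the donor of media replicate 3 and lactate replicate 2 gave the smallest difference for each of the 8 genes.

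Activation itself is addressed by the media and naïve libraries. Here 7 of 8 members rose, beside 28.5% of all genes called higher and 29% called lower, and the median log2 fold change was 0.85 against -0.029 over all genes. Tcp1 rose most: 228, 240, 248 and 257 CPM in naïve replicates 1 to 4 against 773 to 943 CPM in media, a log2 fold change of 1.82 ± 0.08 (SE, edgeR adjusted p = 5.56e-09). Cct7 followed at 1.2 ± 0.09 (SE), then Cct5 at 0.96 ± 0.09, Cct4 at 0.88 ± 0.11, Cct2 at 0.81 ± 0.08 and Cct8 at 0.68 ± 0.10, with adjusted p-values of at most 3.96e-05. For these 6 genes no media library overlapped the naïve libraries, but the share of all genes that did the same was not counted.

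Cct3 was the member not called. Its naïve libraries were at 162, 168, 170 and 200 CPM and its media libraries at 144 to 228 CPM, so the groups overlapped. The log2 fold change was 0.15 with a 95% interval of -0.11 to 0.42 (edgeR adjusted p = 0.335), which does not show that the levels are equal. The log2 CPM difference was 0.20 among the libraries with lower numbers and -0.04 between the 1 naïve and 1 media library with higher numbers. Cct6a was at 170, 186, 189 and 185 CPM in naïve libraries, each below the lowest media library at 191 CPM, with a log2 fold change of 0.48 ± 0.13 (SE, adjusted p = 0.00492). That call was lost in 10 of 22 alternatives: with DESeq2 size factors, with the 2 groups fitted alone, and on leaving out 1 library among naïve replicates 1, 2 and 3, media replicates 1, 3 and 4, and lactate replicates 3 and 4. The edgeR adjusted p was 0.0112 to 0.0299 in these 10. The B, myeloid and red cell markers of the naïve libraries move with this comparison, and their part in it was not tested. Without naïve replicate 4, which stood apart, 7 of 8 members were called and the median was 0.89.

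Between lactate and naïve cells 8 of 8 members rose, with 33% of all genes called higher and 32% lower. The log2 fold changes ran from 1.30 for Cct3 to 2.19 for Tcp1 and had a median of 1.47, against 0.012 over all genes. Fold changes on this scale were 2.46 for Cct3, 2.55 for Cct2, 2.60 for Cct4, 2.76 for Cct6a, 2.78 for Cct8, 3.08 for Cct5, 3.60 for Cct7 and 4.57 for Tcp1. No lactate library overlapped a naïve library for any member, but the share of all genes that did the same was not counted. Side by side, Tcp1 had the largest difference between media and naïve and the smallest between lactate and media, and Cct3 the reverse. These comparisons share the media libraries, so this is given as values only.

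**Figure D3:**
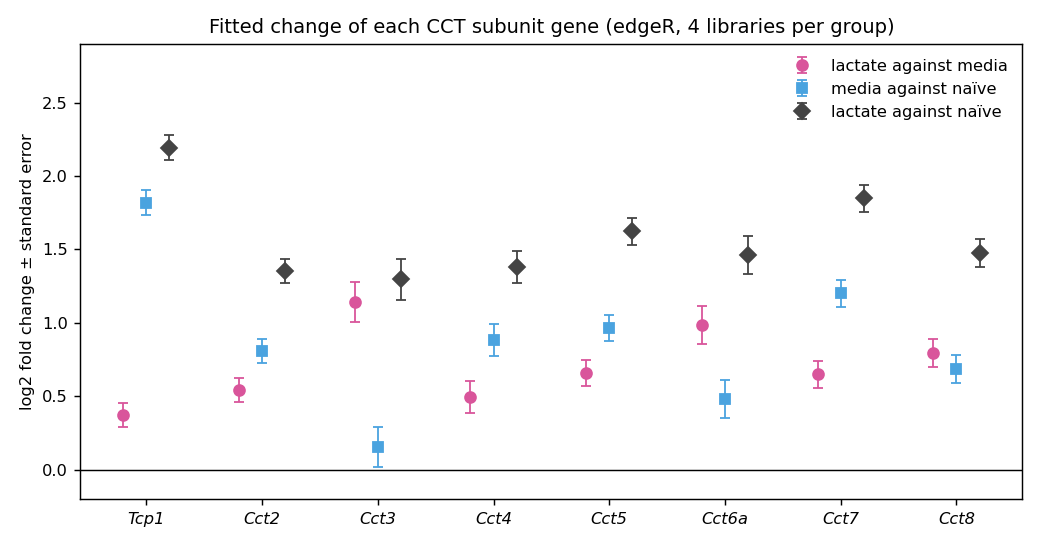
Fitted log2 fold change with its standard error for each CCT subunit gene in the 3 pairwise comparisons of the groups (edgeR, 4 libraries per group). All 24 values lie above 0. The lactate against naïve values run from 1.30 to 2.19, while the other 2 comparisons spread from 0.15 to 1.82.

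In sum over the 8 genes, CCT transcripts took 0.198% ± 0.010 (SD, n = 4) of all counts in naïve, 0.392% ± 0.045 in media and 0.588% ± 0.013 in lactate libraries. The 4 media libraries held 0.412%, 0.328%, 0.429% and 0.400%, and the 4 lactate libraries 0.594%, 0.588%, 0.599% and 0.570%. The groups did not overlap, and the media libraries were the most spread. Media replicate 2 was the lowest media library for 8 of 8 members, naïve replicate 1 the lowest naïve library for 8 of 8, and media replicate 3 the highest media library for 7 of 8. In the lactate group no library was lowest or highest for all members. Replicate 3 was the highest for 5 and replicate 2 the lowest for 5, while replicate 1 was the lowest for 3 and the highest for 3. Media replicate 2 and lactate replicate 3 have no partner from the same donor. The median log2 fold change, lactate against media, was 0.58 without media replicate 2 and 0.63 without lactate replicate 3. The coefficient of biological variation from edgeR was 10.9% for Tcp1 and Cct2 and at most 15.0% for the members, against a median of 18.7% over all genes.

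The balance between subunits was described by the share of each in the sum of the 8, after division by the length of 1 annotated transcript. Tcp1 made up 11.0% of the sum in naïve, 20.1% in media and 16.8% in lactate libraries. Cct3 made up 9.81%, 5.6% and 8.03%, and Cct6a 8.26%, 5.90% and 7.57%, in the same order. For these 3 genes and Cct8 (10.2%, 8.44% and 9.43%) the lactate value lay between the naïve and the media value. The lactate value lay further from naïve than the media value for Cct2 (22.3%, 20.1% and 18.9%) and Cct4 (11.3%, 10.8% and 9.82%). The same held for Cct5 (17.4%, 17.5% and 17.8%) and Cct7 (9.74%, 11.5% and 11.6%). Media and lactate shares did not overlap for Tcp1, Cct2 and Cct4, which were lower with lactate, nor for Cct3, Cct6a and Cct8, which were higher. Cct5 (17.5% and 17.8%) and Cct7 (11.5% and 11.6%) overlapped. Shares sum to 100 percent, so they are not independent, and no test was made.

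The ratio of the highest to the lowest member was 2.7 ± 0.03 (SD, n = 4) in naïve, 3.71 ± 0.50 in media and 2.52 ± 0.25 in lactate libraries. Cct6a, the lowest in naïve and lactate, is measured there with its longest annotated transcript, typed as a processed transcript, where the other 7 have a principal protein-coding one. Cct2 was first in every group by this measure, at 22.3%, 20.1% and 18.9%, but its media share and that of Tcp1 (20.1%) overlapped. Dividing by the union of exons, the length in the table, gave ratios of 5.65, 8.98 and 5.86, and the same 6 members separated media from lactate in the same directions. The order of levels between genes does depend on the length, because exon unions of Cct3 (6370 bases), Cct7 (6778) and Tcp1 (5030) are far longer than their transcripts (1977, 2441 and 2446). The transcript length was chosen after the shares by exon union had been seen.

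**Figure D4:**
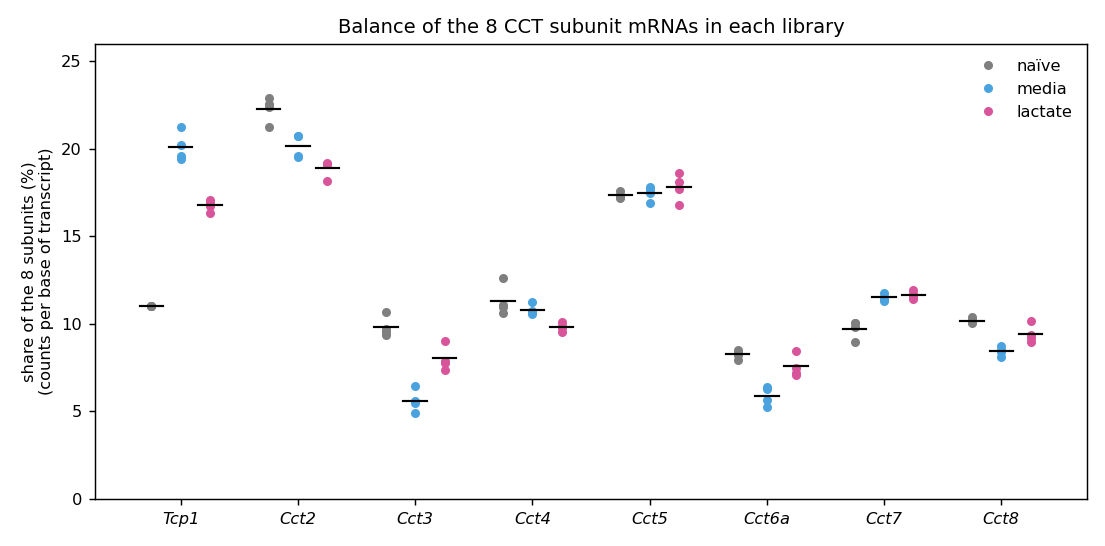
Share of each subunit in the sum of the 8, in percent of counts per base of transcript. Dots are the 4 libraries of a group and the line is their mean. Tcp1 goes from 11.0% in naïve to 20.1% in media and 16.8% in lactate, and Cct3 from 9.81% to 5.6% and 8.03%. Cct2 goes from 22.3% to 20.1% and 18.9%.

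Prefoldin, which delivers clients to CCT, had 4 of 6 genes called higher with lactate against media and none lower. This stands beside 13.9% of all genes called higher and 11.1% lower. The median log2 fold change of the 6 was 0.59. Pfdn4 rose most (0.96 ± 0.13 SE, adjusted p = 0.000174). Pfdn5, the prefoldin gene with the highest level per length, did not pass the test (-0.09, adjusted p = 0.576). In the donor block 2 of the 6 were called with naïve libraries in the fit and 4 without them. Of all 13767 genes, 625 and 2030 were called higher in these fits. Of the 4 cofactor genes, Pdcl3 (0.56 ± 0.13 SE, adjusted p = 0.00516) and Pdcd5 (0.53 ± 0.11 SE, adjusted p = 0.00188) rose. Leaving out any 1 media or lactate library left 1 of the 2, and the donor block called 0 with and 2 without naïve libraries.

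The HSP70, HSP90 and HSP110 genes with their co-chaperones had 13 of 22 called higher with lactate and none lower. Among all genes 13.9% were called higher and 11.1% lower. The list median was 0.62. Among the 13 called, Ahsa1, an activator of HSP90, had the largest log2 fold change (0.92 ± 0.13 SE, adjusted p = 0.000273). Hsph1, an HSP110 gene, differed more but did not pass (1.67 ± 0.50 SE, adjusted p = 0.0189). It was at 41.0 to 73.0 CPM in media and 137 to 223 CPM in lactate, with no overlap. The spread in that fit also takes in the naïve libraries, where Hsph1 was at 618, 924, 878 and 91.0 CPM in replicates 1 to 4. The most abundant, Hsp90ab1, did not pass the test (0.12, adjusted p = 0.604). The count of 13 was 4 in the donor block with naïve libraries, where 625 of all 13767 genes were called higher. It was 14 in the donor block without them, where 2030 were. With 1 library left out it was 9 to 15, being 15 without naïve replicate 4, where 2552 of 13627 genes were called higher. Media and lactate fitted alone also gave 15, where 2462 of 12460 genes were called higher. For media against naïve the same list had 8 of 22 called higher and 7 lower, beside 28.5% and 29% of all genes. Hspa1a, Hspa1b, Hsph1 and Dnajb1 were among the 7, and their high naïve levels were those of replicates 1 to 3: Dnajb1 was at 923, 1416, 1427 and 88.5 CPM in naïve replicates 1 to 4.

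Client lists are read beside the 13.9% of all genes called higher and 11.1% called lower with lactate. In the donor blocks 992 of all 13767 genes were called with and 3769 without naïve libraries. Without naïve replicate 4 it was 4845 of 13627 genes, against 3451 of 13767 in the main fit. Among 14 tubulins 5 rose and 2 fell: Tuba4a rose most (1.08 ± 0.20 SE, adjusted p = 0.00121) and Tubb3 fell most (-3.23 ± 0.43, adjusted p = 0.000184, at 0.516 CPM on average in lactate). Tubb5, the most abundant, was at 2929 CPM in media and 2661 in lactate and did not pass (adjusted p = 0.193). The count of 7 was 4 without media replicate 2, lactate replicate 3 or lactate replicate 4, and in the donor blocks 3 with and 10 without naïve libraries. Of 7 actin and actin-related genes 3 rose, Actl6a most (0.62 ± 0.11 SE, adjusted p = 0.00102), and Actb, the most abundant, just missed the threshold (0.56 ± 0.15, adjusted p = 0.0103). Without naïve replicate 4 that count was 5, and in the donor blocks 0 with and 3 without naïve libraries.

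Among 6 tubulin folding cofactors, which assemble the dimer after CCT, 1 was called higher and none lower, a share close to that of all genes. This was Tbcd (0.60 ± 0.12 SE, adjusted p = 0.00254). Tbcc had a log2 fold change of 0.64 and did not pass (adjusted p = 0.0304), nor did Tbca, the most abundant (-0.01, adjusted p = 0.957). Tbcd's call was lost without lactate replicate 3, and without naïve replicate 4 the count was 3, and in the donor blocks 0 with and 1 without naïve libraries. Of 12 other clients Ccne1 rose (1.14 ± 0.18 SE, adjusted p = 0.000387), Vhl (-0.68 ± 0.12, adjusted p = 0.000752) and Gnb4 fell, and Gnb2, the most abundant, did not pass (adjusted p = 0.27). Without naïve replicate 4 that count was 5, in a fit that called 4845 of 13627 genes. These 3 calls of 12 are a share near that of all genes. The donor block called 1 of the 12 with and 2 without naïve libraries.

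**Figure D5:**
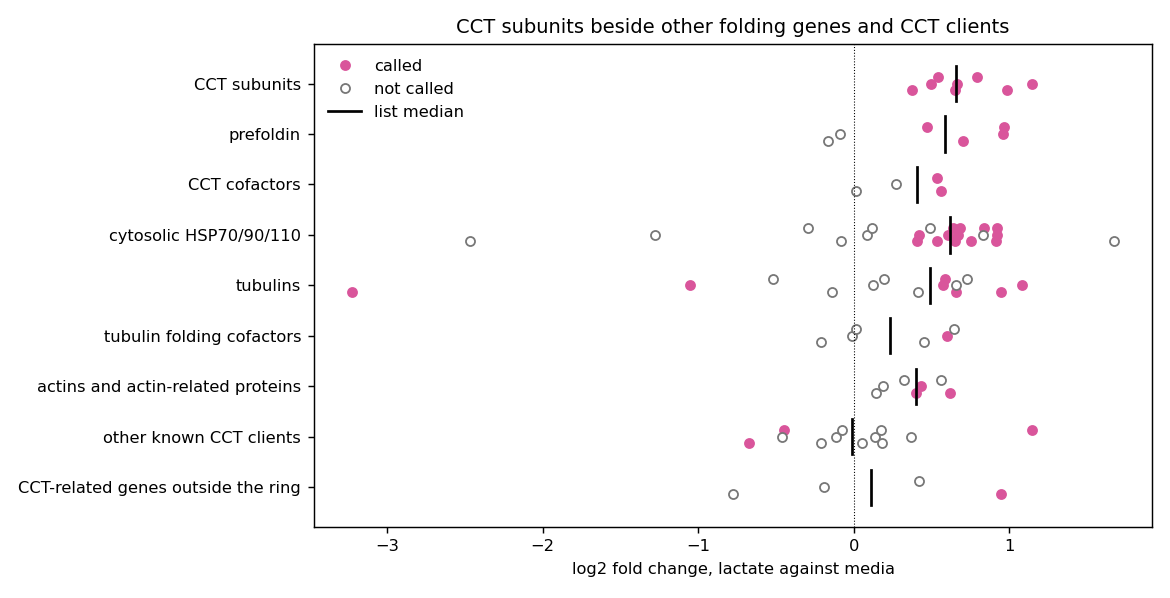
Log2 fold change, lactate against media, of each tested gene in the CCT subunits and in 8 related lists. Filled dots were called at an adjusted p of at most 0.01, open dots were not, and the bar is the list median. The 8 subunits lie between 0.37 and 1.14 and all are filled.

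The CCT-like genes outside the ring were far lower. Cct6b, the testis paralogue of Cct6a, was at 0.168 to 2.13 CPM in the 12 libraries and gave -0.78 with lactate against media (adjusted p = 0.0772), where its paralogue Cct6a gave 0.98. Mkks rose (0.95 ± 0.22 SE, adjusted p = 0.0046) at 2.03 CPM in media and 3.89 in lactate, and that call was lost when media replicate 1, 2 or 3, lactate replicate 3 or lactate replicate 4 was left out, and in the donor block with naïve libraries but not in that without them. Bbs12, the most abundant of these, did not pass (adjusted p = 0.266).

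Likeness was measured by Pearson's r between a gene's log2 CPM and the mean of the 8 members, over 10305 genes of at least 5 CPM. Over the 12 libraries the 5 most alike were Phb2 (r = 0.9976), Eif1ax, Ran, C1qbp and Psma6 (r = 0.9968), which encode a prohibitin, a translation initiation factor, a nuclear transport GTPase, a mitochondrial matrix protein and a proteasome subunit. Over the 8 activated libraries they were Actl6a (r = 0.9984), Tpd52l2, Lap3, Gm13461 and Kansl2. The libraries fall into 3 groups, which set much of these values, and they are given as a description. The members themselves had r of 0.847 (Cct3) to 0.995 (Cct5) with the mean of the other 7 over 12 libraries, and of at least 0.981 over the 8 activated ones.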

How the data were processed

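The data are RNA-seq of mouse CD8+ T cells in 12 libraries: 4 naïve, 4 media and 4 lactate. By the methods of the paper and the submitters' processing notes, the authors made reads with bcl2fastq 2.20.0.422, aligned them to GRCm38 (mm10) with STAR 2.7.5b, removed PCR duplicates and deposited the raw counts of uniquely mapped reads in exons from featureCounts. The counts are whole numbers and were not normalized; duplicate removal lowers the counts of the most abundant genes most. Totals were 14726904 to 21478137, and precision rests on the spread of 4 libraries per group.

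Genes with at least 1 CPM in at least 3 libraries were kept (13767). One edgeR 4.0.16 fit (R 4.3.3; TMM, a term per group, quasi-likelihood F test) gave all comparisons, and the SE was derived from F as the log2 fold change over its root. For log2 CPM the prior count was 2, and TPM was computed with the exon lengths of the table. Alternatives were DESeq2 1.42.0, limma 3.58.1 voom, other scalings and filters, replicate blocks and leaving out each library. The donor block without naïve libraries, the transcript lengths, the background of abundant genes and the promoter window length were chosen after values had been seen. Scripts were tested on simulated data. The named genes were the members, the most abundant gene and the largest called rise and fall of each list, the 5 most alike genes, and neighbours sharing exons. Members and lists were chosen with earlier results of these data known. Donors and library series were read from the descriptions: same-donor media and lactate libraries had correlations of their deviations from the group means of 0.374, 0.211 and 0.553, but 2 pairs of different donors reached 0.371 and 0.297, so that the pairing rests on the labels, while title numbers do not follow the donors throughout.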

Additional observations from a re-analysis of the deposited data

Results flagged for a closer look

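Of 27 groups of 4 libraries examined (the 8 genes and their summed level in each group), 1 held a library far from the others by Dixon's criterion, which chance gives in about 1 in 20 groups. Tcp1 in lactate replicate 3 was at 1173 CPM, and its gap to the next library was 0.915 of the group's range. The other 3 lactate libraries were at 1085 to 1093 CPM. Without lactate replicate 3, Tcp1 gave a log2 fold change of 0.34 for lactate against media, with an edgeR adjusted p of 0.0185.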

How the results depend on the processing

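The direction of each member was kept in all alternatives run for the 8 subunits, and Cct3 in media against naïve was called in none of them. The number of members called was 6 to 8 for lactate against media, 6 or 7 for media against naïve and 8 for lactate against naïve. Of 544 values of single members under alternatives, 525 kept their side of the threshold and 19 lost a call (Tcp1, Cct4 and Cct6a, named above). The median for lactate against naïve was 1.47. It was 1.37 with DESeq2 size factors and 1.37 with DESeq2, which shift the median of all genes to -0.083 and -0.084, and 1.38 to 1.503 with 1 library left out. The title-number replicate block called 8, 7 and 8 members, and the donor replicate block 6, or 7 without the naïve libraries, in which case the median was 0.57. Over all genes, 3451 were called for lactate against media, 992 in the donor replicate block, 3769 in that block without the naïve libraries and 2252 without media replicate 2. With naïve replicate 4 left out, 8, 7 and 8 members were called. The spread of 4 libraries a group limits the precision.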
